A study of Homo sapiens with 3 samples.

Results

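The WNT pathway was examined through 51 of its genes in bulk RNA of RWPE1 cells, an immortalized line of normal adult human prostate epithelium. The members were taken by name, as 12 WNT ligands, 2 ligand secretion factors, 10 Frizzled receptors, 2 LRP co-receptors, 5 regulators of receptor turnover, 5 inhibitors at the cell surface, 3 Dishevelled genes, 3 destruction complex genes, 6 nuclear factors and 3 feedback targets. All 51 were found among the 58037 genes of the deposited count table, and 42 of them had a mean of at least 1 CPM (counts per 1000000 of library counts) over the libraries, as did 16600 genes in all. There were 3 libraries, 1 for each of the OLFM4-wild, OLFM4-Knock out and OLFM4-Active RWPE1 cells, all of the RWPE1 line and grown under the same culture protocol. The methods describe GFP reporter lines selected in puromycin as clones and sorted on GFP before RNA extraction, with the wild reporter cells made by transfection of activation plasmids and the knockout cells by double nickase CRISPR/Cas9 plasmids. The labels give a genotype for each library and do not say which of these steps its cells went through. A difference between libraries therefore cannot be told apart from a difference between single clones, or in transfection, selection or sorting. Without replicates no test across conditions could be made, and the 95% intervals given here cover counting error only. Of those 16600 genes, the interval against the wild library lay above 0 for 7037 and below 0 for 4945 in the knockout library. In the OLFM4-Active library these were 5847 and 4666. Of the 42 members, the numbers were 16 and 13 in the knockout and 14 and 12 in the OLFM4-Active library. An interval clear of 0 therefore does not by itself set a member apart.

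WNT proteins are secreted lipid-modified ligands that bind Frizzled receptors and the co-receptors LRP5 and LRP6. In the absence of ligand, a destruction complex built on AXIN1 and APC lets GSK3B phosphorylate beta-catenin (CTNNB1), which is then degraded. With ligand bound, Dishevelled proteins recruit AXIN1 to the membrane, beta-catenin accumulates, and in the nucleus it joins TCF/LEF factors at target genes, several of which, such as AXIN2 and NKD1, feed back on the pathway. In the prostate the pathway is known for its part in budding of the gland and in the upkeep of basal progenitor cells.

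The libraries held between 16309906 and 58837147 counts, and CPM were taken over library sizes scaled with TMM factors, so that 3 counts corresponded to 0.165 CPM in the OLFM4-wild, 0.0584 CPM in the OLFM4-knockout and 0.126 CPM in the library labelled OLFM4-active. OLFM4 itself had 11.8 CPM (95% interval 10.3 to 13.5) in the OLFM4-wild library, 2.55 CPM (2.13 to 3.03) in the OLFM4-knockout library and 0.670 CPM (0.383 to 1.09) in the library labelled OLFM4-active. The level in the last library goes against its label. The libraries are named wild, knockout and active-labelled from here on. All 5 basal markers read here (KRT5, KRT14, KRT15, TP63, ITGA6) were at 97.2 CPM or above in every library, whereas in the luminal list KRT8 and KRT18 were at 146 CPM or above and KLK2 and KLK3 had at most 2 counts. The luminal list summed to 461, 424 and 306 CPM in the wild, knockout and active-labelled libraries. Of the lists for other cell types, the endothelial list summed to at most 0.605 CPM, and LUM, CDH5, DES and CD3E had 0 counts in every library. In the same order of libraries, the fibroblast list summed to 34.0, 31.7 and 22.9 CPM, most of it COL1A1. The smooth muscle list summed to 23.9, 11.9 and 12.9 CPM, most of it MYH11, and the leukocyte list to 31.4, 24.4 and 19.8 CPM, nearly all of it CD68. CD68 shares 81.6% of its exon length with another counted gene on the same strand, and pairs that fall on both may be missing from its count.

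Of the members that differed by more than 2-fold from the wild library, DKK1, WNT10A, TCF7L1 and TCF7L2 had the highest mean CPM. The 250 bases before the start of each in RefSeq are shown on the coding strand so that the regulatory sequence can be read beside the values. Capitals mark the TCF/LEF letters CTTTGA or CTTTGT on either strand, and the E-box CACGTG bound by MYC and MAX was also searched on both strands. The DKK1 sequence is at chr10:52314031-52314280, that of WNT10A at chr2:218880602-218880851, that of TCF7L1 at chr2:85133142-85133391 and that of TCF7L2 at chr10:112949997-112950246, all on the plus strand of GRCh38.p14.
DKK1: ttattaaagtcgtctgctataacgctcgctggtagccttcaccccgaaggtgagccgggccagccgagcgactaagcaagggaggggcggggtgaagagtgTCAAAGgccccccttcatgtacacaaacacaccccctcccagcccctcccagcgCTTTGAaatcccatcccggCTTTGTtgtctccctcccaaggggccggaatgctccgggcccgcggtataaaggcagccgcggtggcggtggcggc
WNT10A: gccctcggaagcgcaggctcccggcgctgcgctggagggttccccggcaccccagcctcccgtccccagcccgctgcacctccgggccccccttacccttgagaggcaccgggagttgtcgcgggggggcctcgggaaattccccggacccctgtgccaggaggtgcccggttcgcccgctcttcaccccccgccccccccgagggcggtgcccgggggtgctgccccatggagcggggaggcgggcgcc
TCF7L1: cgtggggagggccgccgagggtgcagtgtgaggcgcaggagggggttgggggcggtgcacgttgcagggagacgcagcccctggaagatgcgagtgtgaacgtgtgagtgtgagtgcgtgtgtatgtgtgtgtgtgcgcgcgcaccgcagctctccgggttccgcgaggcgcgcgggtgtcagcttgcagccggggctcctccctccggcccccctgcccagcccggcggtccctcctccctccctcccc
TCF7L2: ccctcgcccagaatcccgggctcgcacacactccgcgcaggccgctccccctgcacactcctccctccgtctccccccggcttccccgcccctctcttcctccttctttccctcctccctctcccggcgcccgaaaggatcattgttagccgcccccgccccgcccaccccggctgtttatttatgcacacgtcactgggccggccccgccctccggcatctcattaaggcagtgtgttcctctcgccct

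The DKK1 sequence held 3 TCF/LEF matches, which began 149, 95 and 76 bases before the start, the first of them on the opposite strand. The other 3 windows held no TCF/LEF match, and none of the 4 held an E-box. Of 27305 RefSeq windows of the same length, 22.9% held a TCF/LEF match and 6.49% an E-box. Among the 34 members with a RefSeq window, the TCF/LEF letters were present in 4 (DKK1, FZD1, RNF43 and SP5) and the E-box in DVL2. These are matches of letters and do not show binding.

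DKK1 encodes a secreted inhibitor that binds LRP5 and LRP6 and keeps WNT from them. It had 872 counts in the wild library, 19183 in the knockout library and 8945 in the active-labelled library, which correspond to 48.0, 374 and 374 CPM. The wild library was thus far below the other libraries, which were alike in CPM. Its log2 fold change against the wild library was 2.96 (95% interval 2.86 to 3.06), or 7.78-fold, in the knockout library. The value in the active-labelled library was also 2.96 (2.86 to 3.07). Both comparisons use the same wild library, and the difference between the knockout and the active-labelled library was -0.00 (-0.04 to 0.03) with TMM scaling and -0.24 with library totals. DKK1 lies on chromosome 10 from 52314281 to 52318042.

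SFRP1, which encodes a secreted protein that holds WNT away from its receptors, stood on the other side. It had 202 CPM in the wild library, 140 CPM in the knockout library and 122 CPM in the active-labelled library. The log2 fold changes of SFRP1 were -0.53 (-0.59 to -0.47) and -0.73 (-0.80 to -0.66), both short of 2-fold. Counted per kilobase of exon, which allows levels of different genes to be compared, SFRP1 made up 54.1% of the summed level of the 5 inhibitor genes in the wild library and DKK1 27.4%. In the knockout library the shares were 13.7% for SFRP1 and 78.0% for DKK1, and in the active-labelled library they were 12.2% and 80.0%. KREMEN1 and KREMEN2 encode receptors with which DKK1 can remove LRP6 from the membrane. KREMEN2 had 11.3, 18.7 and 13.9 CPM in the wild, knockout and active-labelled libraries, a log2 fold change of 0.73 (0.51 to 0.96) in the knockout library. KREMEN1 had 31.8, 30.5 and 32.1 CPM, and both of its intervals included 0. The DKK family member DKK3, which acts little on LRP6, had 69.8, 73.1 and 78.5 CPM, and its value in the knockout library, 0.07 with TMM, was -0.29 with library totals.

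**Figure D1:**
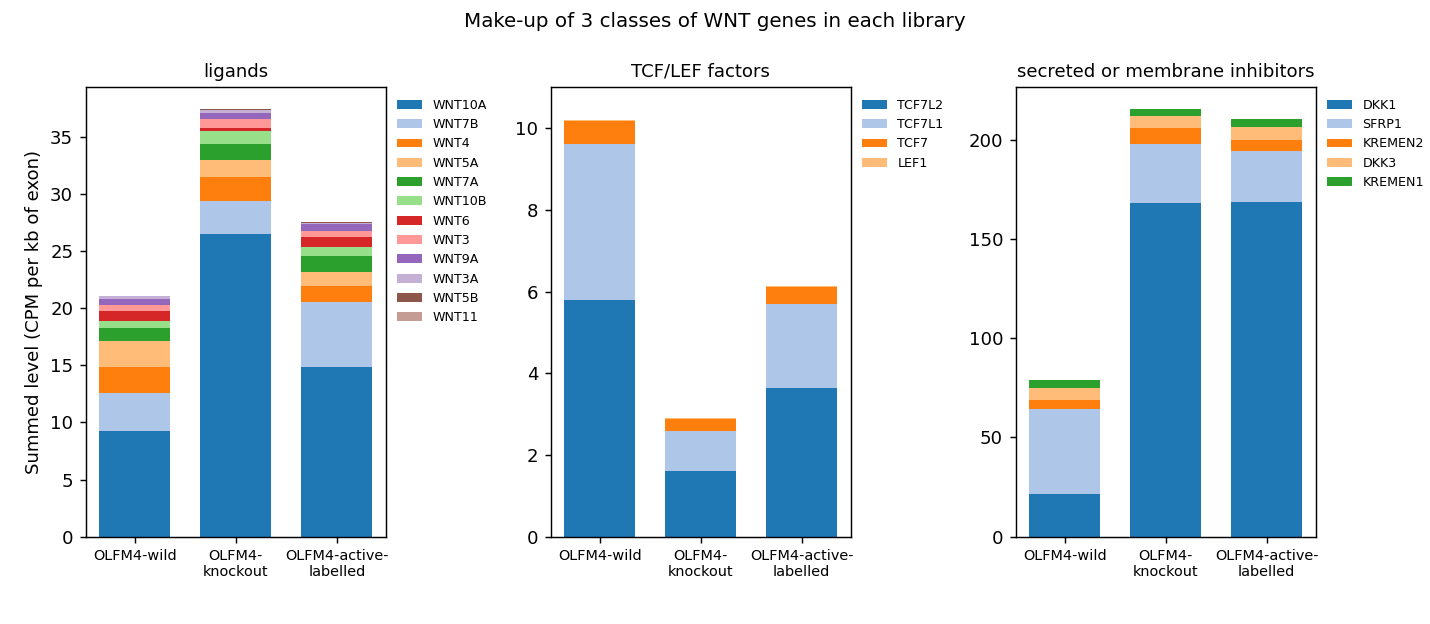
Stacked bars give the summed level of 3 classes of WNT genes, in CPM per kilobase of exon, in each of the 3 libraries, with 1 colour per gene. WNT10A fills most of the taller ligand bar of the knockout library, the TCF/LEF bar is lowest there, and DKK1 replaces SFRP1 as the main inhibitor in both libraries other than wild.

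Among the ligands WNT10A was the most abundant per kilobase of exon in every library. It is a ligand of skin, tooth and other surface epithelia that works through beta-catenin. WNT10A had 492 counts in the wild library, 3966 in the knockout library and 1036 in the active-labelled library, or 27.1, 77.3 and 43.4 CPM. The 3 intervals, 24.7 to 29.6, 74.9 to 79.7 and 40.8 to 46.1 CPM, did not overlap. Its log2 fold change was 1.51 (1.38 to 1.65) in the knockout library, a rise of 2.85-fold, and 0.68 (0.52 to 0.84) in the active-labelled library. WNT10A accounted for 44% of the summed ligand level in the wild library, for 70.7% in the knockout library and for 53.9% in the active-labelled library. The summed level itself was 21.1, 37.4 and 27.5 CPM per kilobase in the same order.

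WNT6 lies directly before WNT10A on chromosome 2, from 218859805 to 218874233, with 6.62 kb between them on the same strand. In the knockout library the pair moved in opposite directions. WNT6 had 27 counts in the wild library, 20 in the much deeper knockout library and 35 in the active-labelled library, or 1.49, 0.390 and 1.46 CPM. Its log2 fold change in the knockout library was -1.92 (-2.84 to -1.04), and that in the active-labelled library was -0.03 (-0.79 to 0.76). The interval of WNT6 is wide because few of its reads were counted, and WNT6 passed the filter of 1 CPM only through the libraries in which it was higher.

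WNT7B, a ligand of developing lung and skin, was next per kilobase in every library. WNT7B had 16.9, 15 and 29.0 CPM in the wild, knockout and active-labelled libraries, and so was highest in the last, by 0.78 (0.58 to 0.98) on the log2 scale. Between the knockout and the active-labelled library WNT7B differed by -0.95 (-1.10 to -0.80). WNT5A, best known for signalling outside the beta-catenin route, had 16.6, 10.5 and 8.83 CPM, with log2 fold changes of -0.66 (-0.86 to -0.45) and -0.91 (-1.17 to -0.65). WNT4, a ligand of the urogenital ducts, had 10.5, 9.66 and 6.45 CPM and was lower in the active-labelled library, by -0.70 (-1.01 to -0.38), whereas its interval for the knockout library included 0. Of the remaining ligands, WNT10B and WNT3 had 1.60 and 2.75 CPM in the wild library and 2.96 and 4.27 CPM in the knockout library, where both intervals lay above 0. WNT7A had 5.01, 6.53 and 6.28 CPM, and WNT9A between 2.01 and 2.59 CPM. WNT3A was counted 11, 48 and 9 times, or 0.605, 0.935 and 0.377 CPM, as the knockout library is the deepest. WNT5B was counted 1, 6 and 5 times and WNT11 1, 6 and 0 times. No fold change is given for these 3 ligands. The floor of 3 counts, 0.126 CPM in the active-labelled library, is the level that the count of 0 for WNT11 allows.

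Ligands are lipid-modified by PORCN and carried to the cell surface by WLS. WLS had 75.2 CPM in the wild library, 119 CPM in the knockout library and 127 CPM in the active-labelled library. Its log2 fold changes were 0.66 (0.58 to 0.75) and 0.76 (0.67 to 0.85), and both stayed above 0 with library totals, at 0.31 and 0.64. PORCN had 10.3, 13.9 and 11.6 CPM, and only the interval for the knockout library, 0.19 to 0.67, lay above 0.

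**Figure D2:**
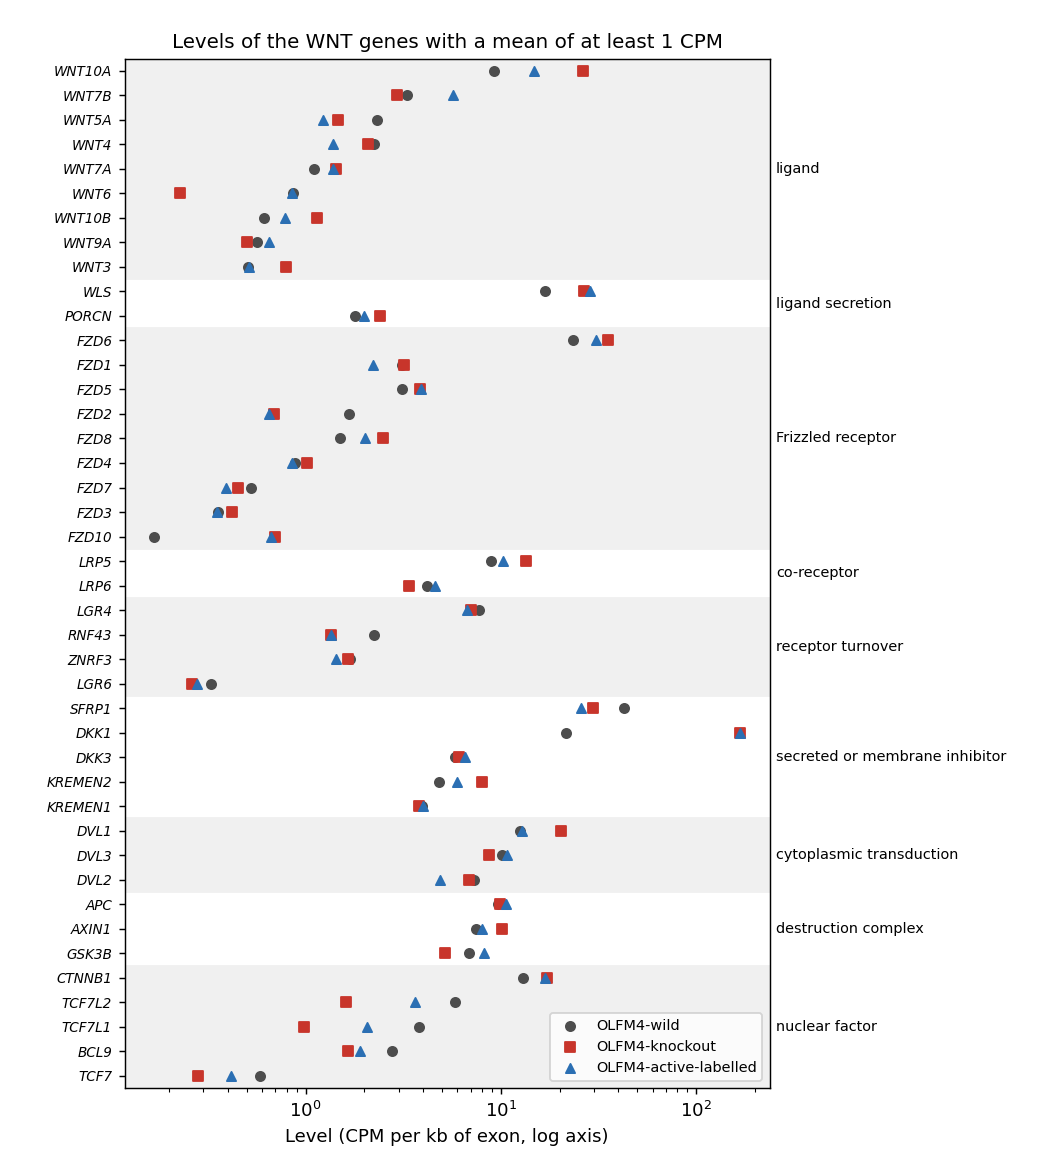
Points give the level of each of the 42 expressed genes (mean of 1 CPM or more), in CPM per kilobase of exon on a log axis, with circles for the wild, squares for the knockout and triangles for the active-labelled library, grouped by role. Libraries stand furthest apart for DKK1, FZD10, WNT6, TCF7L1 and TCF7L2, and close together for genes such as APC and DKK3.

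Frizzled receptors were dominated by FZD6, which took 67.2% of their summed level per kilobase in the wild library, 73.0% in the knockout library and 73.1% in the active-labelled library. FZD6, a receptor linked to planar polarity of hair follicles, had 95, 143 and 125 CPM. Its log2 fold change was 0.59 (0.52 to 0.67) in the knockout library, where it was 0.24 with library totals, and 0.39 (0.30 to 0.48) in the active-labelled library.

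The 2 receptors past 2-fold were both scarce. FZD2 had 114 counts in the wild library, 133 in the knockout library and 59 in the active-labelled library, or 6.27, 2.59 and 2.47 CPM. FZD2 fell in both, with log2 fold changes of -1.28 (-1.65 to -0.90) in the knockout library and -1.34 (-1.82 to -0.88) in the active-labelled library. FZD10 had 10, 118 and 52 counts, or 0.550, 2.30 and 2.18 CPM, so that it passed the filter of 1 CPM only through the libraries in which it was higher. Its log2 fold changes were 2.0 (1.13 to 3.16) and 1.93 (0.99 to 3.13). For neither gene did the interval of the difference between the knockout and the active-labelled library leave 0.

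Of the other Frizzled genes, FZD8 had 6.05, 10.1 and 8.16 CPM, and both of its intervals against the wild library lay above 0. FZD5 had 21.8, 27.1 and 27.6 CPM, though its value in the knockout library, 0.31 with TMM, was -0.04 with library totals. FZD1 had 21.6 and 22 CPM in the wild and knockout libraries and 15.3 CPM in the active-labelled library, a log2 fold change of -0.50 (-0.71 to -0.29) for the last. FZD3, FZD4 and FZD7 had between 1.80 and 7.48 CPM, with intervals that included 0 in each comparison with the wild library. FZD9 was counted 3, 27 and 11 times, or 0.165, 0.526 and 0.460 CPM, and stayed under a mean of 1 CPM.

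The co-receptors diverged in the knockout library. LRP5 had 55 CPM in the wild library, 83.3 CPM in the knockout library and 63.7 CPM in the active-labelled library, and LRP6 had 43.6, 35.3 and 47.5 CPM. The log2 fold changes in the knockout library were 0.60 (0.50 to 0.70) for LRP5 and -0.30 (-0.42 to -0.18) for LRP6. In the active-labelled library they were 0.21 (0.10 to 0.33) and 0.12 (-0.01 to 0.26).

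RNF43 and ZNRF3 are membrane ubiquitin ligases that remove Frizzled receptors, and LGR4, LGR5 and LGR6 are receptors through which R-spondins restrain those ligases. RNF43 had 14.3 CPM in the wild library and 8.53 and 8.58 CPM in the knockout and active-labelled libraries. Its log2 fold changes were -0.74 (-0.97 to -0.51) and -0.73 (-1.0 to -0.46). ZNRF3 had 11.8, 11.6 and 10.003 CPM, with intervals that included 0 against the wild library. LGR4 was the most abundant R-spondin receptor per kilobase of exon, with 49.1, 44.7 and 42.7 CPM, while LGR6 had between 1.23 and 1.54 CPM. LGR5, a stem cell marker of the intestine and hair follicle, was counted 8, 4 and 2 times, or 0.440, 0.0779 and 0.0837 CPM.

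In the cytoplasm, DVL1, one of the Dishevelled adaptors, was highest in the knockout library, with 48.5, 79.0 and 49.9 CPM and log2 fold changes of 0.70 (0.60 to 0.81) and 0.04 (-0.08 to 0.17). The difference between the knockout and the active-labelled library was 0.66 (0.57 to 0.76). DVL2 had 39.0, 36.4 and 25.9 CPM and was lower in the active-labelled library, by -0.59 (-0.75 to -0.43). DVL3 had 63.8, 55.1 and 67.5 CPM.

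Genes of the destruction complex stayed within 2-fold of the wild library. The scaffold gene AXIN1 had 56.2, 76.4 and 60.2 CPM, a log2 fold change of 0.44 (0.34 to 0.54) in the knockout library that was 0.09 with library totals. APC had 132, 135 and 145 CPM, and its value in the knockout library was 0.03 with TMM and -0.33 with totals. GSK3B, the kinase of the complex, had 123 CPM in the wild library, 92.7 CPM in the knockout library and 147 CPM in the active-labelled library. It was thus lower in the knockout library, by -0.41 (-0.49 to -0.34), and higher in the active-labelled library, by 0.25 (0.18 to 0.33). With library totals these values were -0.77 and 0.14, and against genes of like exon length they were -0.28 and 0.18.

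The nuclear end of the pathway split into beta-catenin and the factors it joins. CTNNB1 had 154 CPM in the wild library, 203 CPM in the knockout library and 197 CPM in the active-labelled library, and its log2 fold changes were 0.40 (0.34 to 0.46) and 0.36 (0.29 to 0.43). With library totals the value for the knockout library was 0.05. RNA levels do not measure the stability of the protein, on which the pathway acts.

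All 3 expressed TCF/LEF genes were lower in both libraries than in the wild library, and all 3 fell past 2-fold in the knockout library, where 7.56% of all expressed genes did. TCF7L2, which encodes the TCF factor of many epithelia, had 710 counts in the wild library, 558 in the knockout library and 584 in the active-labelled library, or 39.1, 10.9 and 24.4 CPM. TCF7L1, whose product acts mainly as a repressor, had 306, 224 and 218 counts, or 16.8, 4.36 and 9.12 CPM. Both genes were in the same order, highest in the wild and lowest in the knockout library, with intervals that did not overlap. The log2 fold change of TCF7L2 was -1.85 (-2.01 to -1.68) in the knockout library and -0.68 (-0.84 to -0.52) in the active-labelled library. That of TCF7L1 was -1.95 (-2.20 to -1.69) and -0.88 (-1.14 to -0.63). Between the knockout and the active-labelled library, TCF7L2 differed by -1.17 (-1.34 to -1.0) and TCF7L1 by -1.06 (-1.34 to -0.79).

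TCF7 had 5.89, 2.82 and 4.19 CPM, and log2 fold changes of -1.06 (-1.43 to -0.69) and -0.49 (-0.90 to -0.09). LEF1 was counted 1, 8 and 3 times, or 0.0550, 0.156 and 0.126 CPM. The summed TCF/LEF level per kilobase was 10.2 in the wild library, 2.91 in the knockout library and 6.13 in the active-labelled library, a log2 ratio of -1.81 and -0.73. The make-up of that sum differed less, with TCF7L2 at 56.9%, 55.5% and 59.2% of it. BCL9, a coactivator that binds beta-catenin, had 17.5, 10.5 and 12.1 CPM, with log2 fold changes of -0.74 (-0.94 to -0.54) and -0.54 (-0.77 to -0.30). In bulk RNA, fewer cells with a transcript and less transcript per cell cannot be told apart.

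Fold changes in the knockout library also moved with exon length. The median over expressed protein-coding genes went from 0.36 for exons summing to under 2 kb to -0.13 for those over 12 kb, whereas in the active-labelled library it lay between 0.00 and 0.07. Measured against genes of like length, TCF7L2, TCF7L1 and TCF7 still lay at -1.86, -2.09 and -1.0 in the knockout library, DKK1 at 2.70 and WNT10A at 1.25. The basal marker list also moved with this library, as it summed to 17946, 39786 and 21388 CPM in the wild, knockout and active-labelled libraries. Most of that sum was KRT5 and KRT14. TP63, on the same list, had 414, 472 and 450 CPM. Its log2 fold change in the knockout library was 0.19 with TMM and -0.16 with library totals. All 5 genes of the list lay above 0 in the knockout library with TMM, 3 of them above 1. Of all genes 56.7% and 5.77% did so. With library totals 4 genes of the list lay above 0 and 1 above 1, where 5399 and 368 of all 16600 genes did. The part of the basal list in the values of the WNT genes was not tested.

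**Figure D3:**
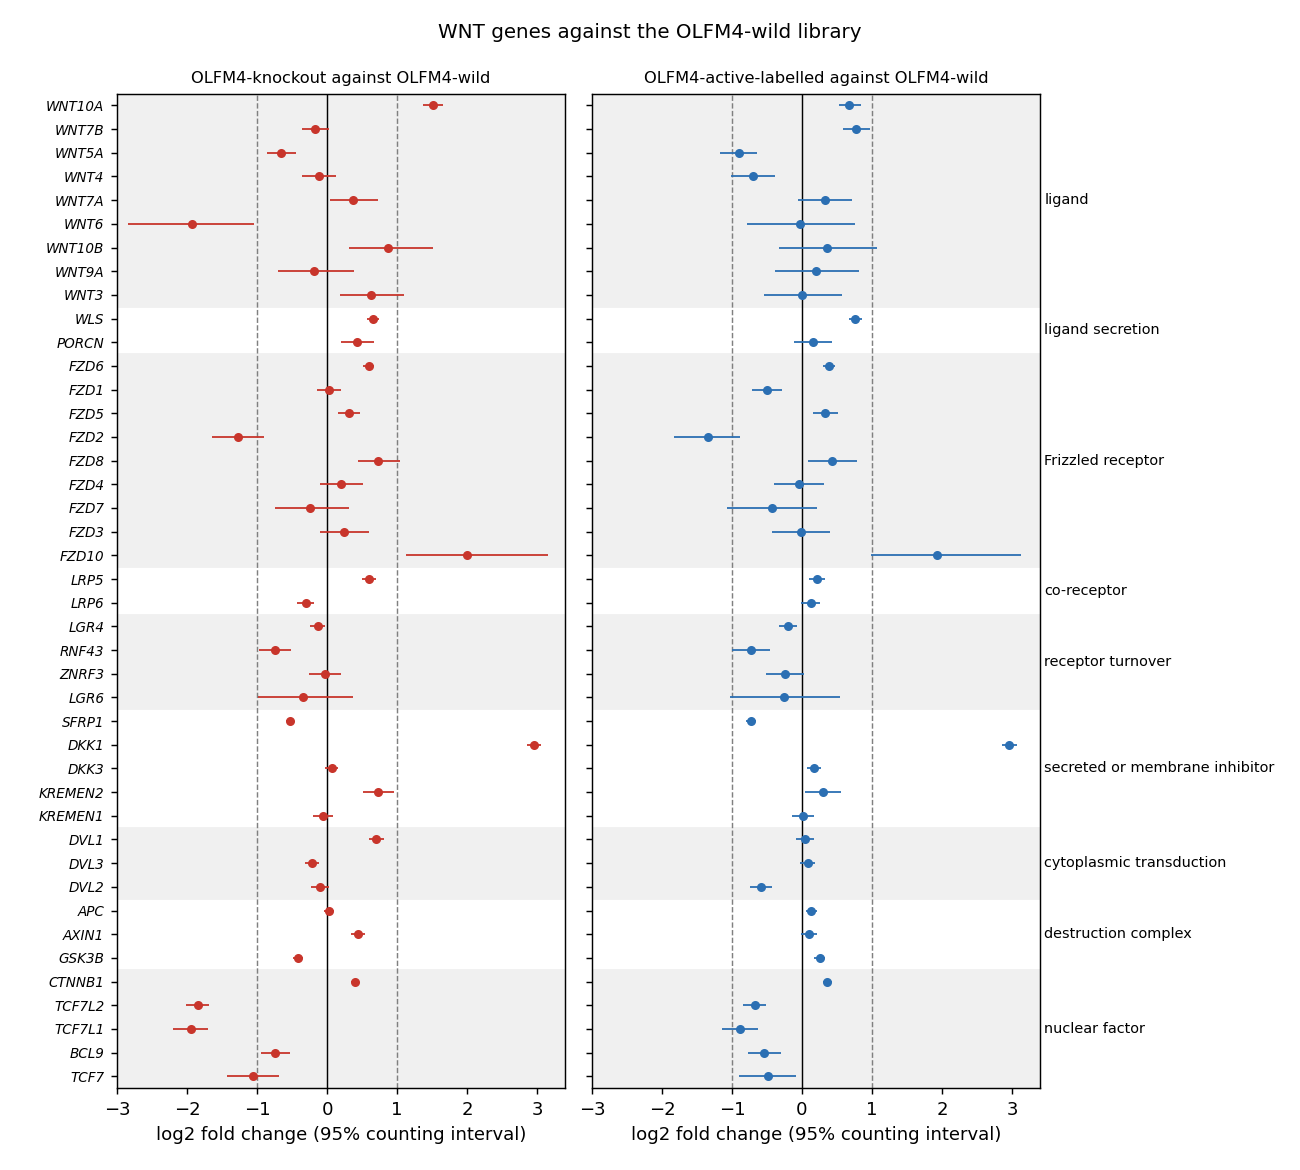
Points give the log2 fold change of each of the 42 genes against the wild library, at left for the knockout and at right for the active-labelled library, and bars give 95% counting intervals. Dashed lines stand at -1 and 1, and DKK1 lies beyond them at 2.96 in both panels while TCF7L1 and TCF7L2 do so at left only.

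The feedback genes that beta-catenin commonly induces had few counts in all libraries. AXIN2, the most widely used readout of the pathway, was counted 2 times in the wild library, 11 times in the knockout library and 2 times in the active-labelled library. SP5 was counted 3, 14 and 6 times, and NKD1, an inhibitor of Dishevelled, 17, 18 and 9 times. For NKD1 these counts are 0.936, 0.351 and 0.377 CPM, with log2 fold changes of -1.42 (-2.46 to -0.37) in the knockout and -1.28 (-2.66 to -0.07) in the active-labelled library. None of the 3 reached a mean of 1 CPM, and a difference in AXIN2 or SP5 was not detectable at this depth. AXIN2 shares 25.3% of its exon length with a read-through gene on the same strand, and pairs that fall on both may be missing from its count.

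The 42 expressed members were compared with all expressed genes by a threshold of 1 on the log2 fold change, that is 2-fold. In the knockout against the wild library, 3 members (WNT10A, FZD10 and DKK1) lay above 1, or 7.14% of them, where 5.77% of all 16600 genes did. There were 5 members (WNT6, FZD2, TCF7, TCF7L1 and TCF7L2) below -1, or 11.9%, against 7.56% of all genes. In the active-labelled library against the wild library, 2 members (FZD10 and DKK1) lay above 1, or 4.76%, against 3.78% of all genes, and FZD2 alone lay below -1, or 2.38%, against 6.73%. Between the knockout and the active-labelled library, 0 members lay above 1, where 2.95% of all genes did, and 3 (WNT6, TCF7L1 and TCF7L2) below -1, or 7.14%, where 3.39% did. Each share rests on at most 5 genes, FZD10 and WNT6 among them, so the shares are given as a description. With library totals, 3 members lay above 1 and 8 below -1 in the knockout library, against 2.22% and 13.9% of all genes, the added ones being WNT5A, RNF43 and BCL9. In the active-labelled library 2 lay above and 2 below, against 2.89% and 8.36%. The median log2 fold change of the 42 members was -0.00 in the knockout library, against 0.10 for all genes, and 0.06 in the active-labelled library, against 0.05. TMM scaling raised every value by 0.35 in the knockout and by 0.11 in the active-labelled library compared with library totals, and with totals the medians of the members were -0.36 and -0.05.

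**Figure D4:**
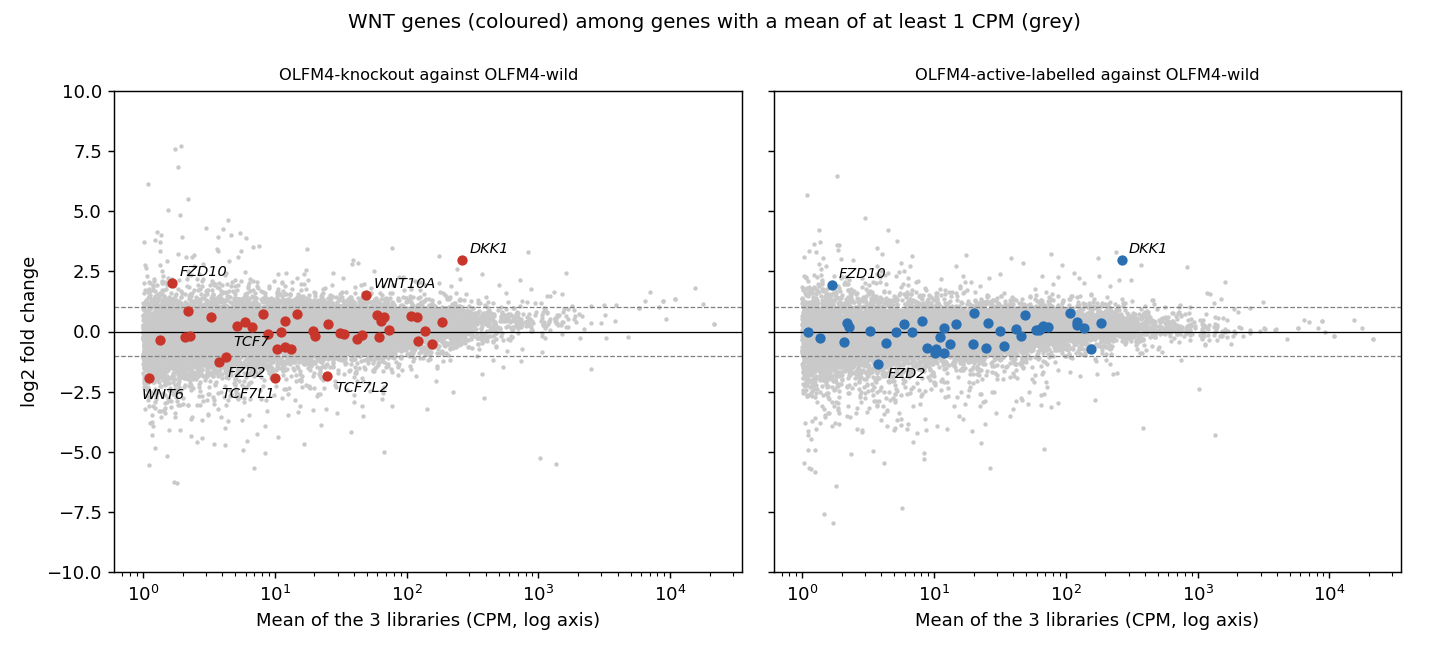
Each point is a gene with a mean of at least 1 CPM, plotted by that mean on a log axis against its log2 fold change from the wild library, with the 42 WNT genes in colour over 16600 genes in grey. Most WNT genes lie between the dashed lines at -1 and 1, and those outside are named.

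A further 75 genes of the pathway from a separate list were read in the same way, and 50 of them had a mean of at least 1 CPM. Of these, 4 lay above 1 and 4 below -1 in the knockout library, and 4 above and 4 below in the active-labelled library. Each count is 8% of the list, where 5.77% and 7.56% of all genes lay above and below in the knockout library and 3.78% and 6.73% in the active-labelled library. With library totals 2 lay above and 10 below in the knockout library, and 3 above and 4 below in the active-labelled library. The shares of all genes with totals were 2.22% above and 13.9% below in the knockout library, and 2.89% and 8.36% in the active-labelled library. Of 14 other inhibitors, 3 had a mean of at least 1 CPM, and 1 of these was past 2-fold. This was TRABD2A, a membrane protease that cuts and inactivates WNT ligands, with 3.85, 13.5 and 9.84 CPM in the wild, knockout and active-labelled libraries and log2 fold changes of 1.80 (1.46 to 2.19) and 1.35 (0.96 to 1.76). Of 7 ligands outside the members 1 reached a mean of 1 CPM (WNT2B), as did 1 of 4 R-spondins (RSPO4), both named after their values were seen.

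Genes often listed as targets of the pathway did not follow one direction. Of the 10 that passed the filter of 1 CPM, 6 lay above 0 in the knockout library, 3 of them above 1, and 1 lay below -1. Of all genes there, 56.7% lay above 0, 5.77% above 1 and 7.56% below -1. In the active-labelled library 5 lay above 0, 3 of them above 1, and 1 lay below -1. The shares of all genes there were 53.9%, 3.78% and 6.73%. With library totals, 1 lay above 1 and 2 below -1 in the knockout library, against 2.22% and 13.9% of all genes. In the active-labelled library 2 lay above 1 and 1 below -1 with totals, against 2.89% and 8.36%. With TMM, the 5 not past 2-fold in either library lay between -0.81 (JAG1) and 0.90 (MYC) in the knockout library. In the active-labelled library they lay between -0.65 and 0.83, for the same genes, which were named after their values were seen. CCND1, which encodes cyclin D1, had 93.8, 197 and 197 CPM, a rise of 1.07 (0.99 to 1.14) on the log2 scale in the knockout library and of 1.07 (0.99 to 1.15) in the active-labelled library. With library totals these were 0.72 and 0.95. FOSL1, an AP-1 subunit gene that also answers to ERK signalling, rose from 11.7 to 45.5 and 84.6 CPM, with log2 fold changes of 1.96 (1.76 to 2.17) and 2.86 (2.65 to 3.07). SOX9, an epithelial progenitor factor, had 20.5, 20.4 and 61.4 CPM, and so was higher in the active-labelled library, by 1.58 (1.42 to 1.75), while its interval for the knockout library included 0. ASCL2, a stem cell factor of the intestine, rose by 1.09 (0.88 to 1.30) in the knockout library, a value that was 0.73 with library totals and 0.72 against genes of like exon length. ID2, also a BMP target, had 44.03, 15.2 and 7.32 CPM, with log2 fold changes of -1.54 (-1.68 to -1.39) and -2.58 (-2.83 to -2.35).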

How the data were processed

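Ribosomal RNA was removed from total RNA of sorted RWPE1 cells before paired-end sequencing. The authors trimmed reads with cutadapt, aligned them to GRCh38 with HISAT2 and deposited raw counts per gene from featureCounts, in whole numbers, for uniquely mapped pairs on the reverse strand. Each column names its library. Of the 58037 genes, 98.1% matched GENCODE version 44 by identifier, which gave symbols, positions and union exon lengths.

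TMM factors came from edgeR 4.0.16 in R 4.3.3. An offset of 0.5 counts, as limma-voom uses, went into log2 fold changes. Intervals at 95% are Clopper-Pearson intervals, conditional on the sum of both counts for fold changes, and cover counting error only. Levels per kilobase are CPM divided by exon length. Python 3.11.15 with scipy 1.17.1 did the rest, and the steps were tested on simulated data. Members and lists were chosen with earlier results of these data known. Every member could be named, members with a mean of at least 1 CPM are given in each library, and of other pathway genes the 10 with the largest fold change past 1 were named. The lists held SFRP3 and TIKI1 also under their other names, FRZB and TRABD2A.

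Alternatives were library totals, DESeq2 1.42.0 size factors, upper quartile factors, offsets of 1 or 5 counts, TMM without the 10 most abundant genes, thinning to 16309906 counts, and no filter or a mean of 10 CPM. A comparison with genes in the same of 6 classes of exon length was added after seeing the data.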

Additional observations from a re-analysis of the deposited data

How the results depend on the processing

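The 8 members past 2-fold in the knockout library and the 3 in the active-labelled library stayed past it, in the same direction, under all 8 alternatives that gave each a value. These alternatives reuse the counts of the same 3 libraries and do not stand in for replicates. In the knockout library the counting intervals of TCF7 and FZD2 reached inside 2-fold. In the active-labelled library those of FZD2 and FZD10 did. With library totals in place of TMM, 8 members lay below -1 in the knockout library and 2 in the active-labelled library. Of all genes, 13.9% and 8.36% did so with totals. The median of the members was then -0.36 in the knockout against the wild library and -0.17 in the knockout against the active-labelled library. Without a filter on CPM, 5 members lay above 1 in the knockout library, and LGR5 and NKD1 joined those below -1, at -2.42 and -1.42. In the active-labelled library 4 lay above 1 and 4 below -1, and in the knockout against the active-labelled library 3 lay above 1. Those added are genes of few counts. With a filter at a mean of 10 CPM, 28 members were left. In the knockout library 2 of these lay below -1, and DKK1 and WNT10A lay above 1, at 2.96 and 1.51. In the active-labelled library 1 lay above 1 and 0 below -1. The shares of all genes were not counted without the filter or at 10 CPM, so these numbers have no background beside them. Small values depend on the scaling: FZD1, FZD3, FZD4, FZD5, DKK3 and APC changed sign in the knockout library with library totals. No paired analysis was possible because each group holds 1 library, and no library could be left out for the same reason.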

Other observations

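Among partners of beta-catenin in the nucleus, the acetyltransferase genes EP300 and CREBBP, which serve many transcription factors, were lower in the knockout library. EP300 had 89.2 CPM in the wild library, 28.9 CPM in the knockout library and 52.3 CPM in the active-labelled library, with log2 fold changes of -1.63 (-1.73 to -1.52) and -0.77 (-0.88 to -0.66). CREBBP had 160 CPM, 74.1 CPM and 163 CPM, so that its value of -1.11 (-1.18 to -1.04) in the knockout library stood beside 0.02 (-0.05 to 0.09) in the active-labelled library. Both have long exons, and against genes of like length they lay at -1.57 and -0.98 in the knockout library. TLE2, a Groucho co-repressor gene, had 3.41, 1.75 and 1.67 CPM.

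Planar polarity genes, which use Frizzled receptors without beta-catenin, were all expressed, 9 of 9. PRICKLE2 was past 2-fold with TMM, 1 of the 9, where 7.56% of all genes lay below -1 in the knockout and 6.73% in the active-labelled library. VANGL2 also passed in the knockout library with library totals, at -1.18, and was named after its value was seen. PRICKLE2 had 20.4, 5.90 and 8.54 CPM in the wild, knockout and active-labelled libraries, with log2 fold changes of -1.79 (-2.01 to -1.57) and -1.26 (-1.51 to -1.01).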
